A study of Rattus norvegicus with 21 samples.

Results

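In renal cortex of diabetic rats, 63 of the 26404 genes counted were chosen for a higher level under treatment with dietary restriction plus medical therapy (DMT) than in the other rats used. The genes were selected on measured values, and no condition was set on the order of the groups without treatment. Their mean in DMT-treated rats was at least 1 CPM (counts scaled to a common library total after TMM normalization). That mean was at least 2 times both the mean of diabetic SHAM rats and the mean of healthy Sprague Dawley (SD) rats, with 0.1 CPM added to each mean, and the lowest DMT-treated rat lay above the highest of all other rats. In all, 71 genes met these conditions. Of these, 6 were left out by identifier and 2 because they lie in a window on chromosome 5 from position 137983579 to 138597977 (rn5).

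The data are RNA-seq of renal cortex from male rats at 37 weeks of age, with 1 library per rat. SD rats (n=6) were healthy controls. SHAM rats (n=9 deposited, n=7 used here) had sham surgery and belonged to the Zucker Diabetic Sprague Dawley (ZDSD) strain, a model of obesity and diabetes that develops diabetic kidney disease. DMT-treated rats (n=6), called Medical bypass in the labels, were ZDSD rats that also had sham surgery and then received a restricted diet with ramipril, metformin, liraglutide, rosuvastatin and fenofibrate. Strain, diabetes and sham surgery therefore differ together between SD and SHAM rats, and diet and all 5 medicines differ together between SHAM and DMT-treated rats, so the part of each cannot be told apart.

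Total counts ranged from 20896370 to 27597901 (median 24089205.5) in SD rats, from 14502127 to 23995113 (median 19835551) in the 7 SHAM rats, and from 22308943 to 26812590 in DMT-treated rats, where the median was 24815451.5. At these depths 3 counts equal 0.109 to 0.207 CPM. SHAM rats 343 and 348 stood apart, with 121511 and 101534 counts. They took no part in the choice of genes and are described on their own below. The labels mark the libraries of SD and SHAM rats, but not those of DMT-treated rats, as new analyses of samples deposited earlier. This mark coincides with the treatment, so the 2 cannot be told apart.

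Fenofibrate is an agonist of PPARα, a nuclear receptor that pairs with the retinoid X receptor and switches on genes for the uptake, transport and peroxisomal and mitochondrial oxidation of fatty acids. The proximal tubule, which makes up most of the renal cortex, draws most of its energy from fatty acid oxidation. Each of the other medicines has a different main target or action. Ramipril inhibits angiotensin-converting enzyme, metformin lowers hepatic glucose output, liraglutide activates the receptor of glucagon-like peptide 1, and rosuvastatin inhibits the enzyme that sets the rate of cholesterol synthesis. The deposited tables give Ensembl identifiers without symbols, and 0 identifiers matched the gene table used here. Genes are therefore given by identifier and rn5 position, their functions were not analysed here, and the tissue was not checked against markers of its cell types. In bulk tissue, more RNA per cell and more cells of a type that expresses a gene cannot be told apart.

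Together the 63 genes took 1.483 ± 0.09014% of all counts (mean ± SD, n=6) in DMT-treated rats. The share was 0.4438 ± 0.03026% in SHAM rats (n=7) and 0.4486 ± 0.06268% in SD rats (n=6). Individual shares ran from 1.389% to 1.626% in DMT-treated rats, from 0.4137% to 0.4832% in SHAM rats and from 0.3684% to 0.5366% in SD rats. The DMT range was apart from both others, as the choice of genes fixes, whereas the ranges of SHAM and SD rats overlapped. All 63 genes passed the filter on low counts that 14664 genes passed. Of those 14664 genes, 320 had every DMT-treated rat above every other rat (2.18%). Of these 320 genes, 71 also met the conditions on fold and level, and 63 remained after 6 were left out by identifier and 2 by position.

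**Figure D1:**
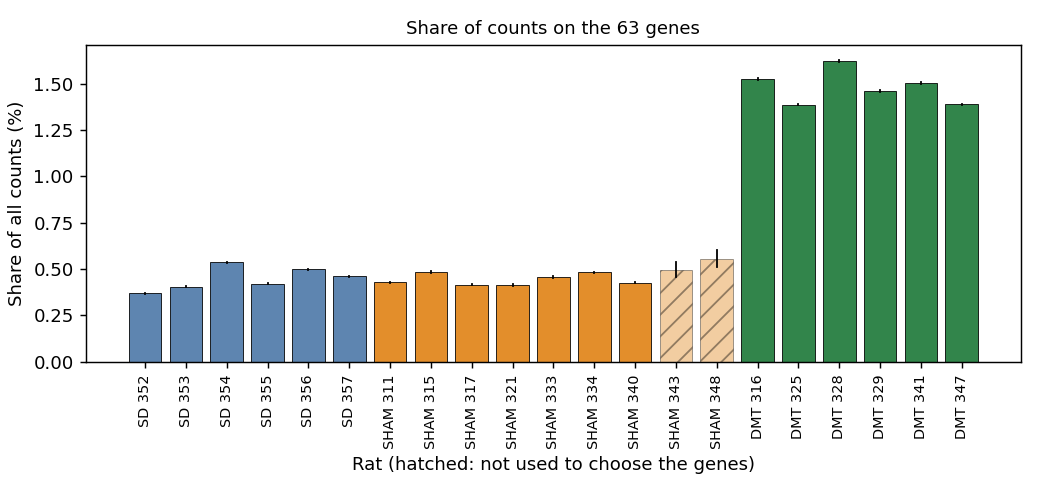
Share of all counts (percent, y axis) on the 63 genes in each rat (x axis), with bars from 0, exact binomial 95% intervals that cover counting error only, and hatched bars for the 2 shallow SHAM libraries. DMT-treated rats lie between 1.389% and 1.626%, while SHAM rats 343 and 348, which were not used to choose the genes, lie at 0.4971% and 0.5555%, nearer the other SHAM rats.

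SHAM rats 343 and 348 measured the same genes without having been used to choose them. Between them, counts over 5209 genes agreed within sampling noise (chi-square test, p=0.195), and they were summed and counted as 1 sample. No added spread between rats was seen, and whether the 2 libraries come from independent rats was not tested beyond their labels. The 63 genes held 1168 of the 223045 counts, with an exact Poisson 95% interval of 1102 to 1237 that covers counting error only. At that depth the SHAM mean gives 989.95 counts, the SD mean 1001.8 and the DMT mean 3307.2. The observed count was 1.18 times the SHAM value, 1.166 times the SD value and 0.3532 times the DMT value. Its interval lay far below the DMT value and above the 2 untreated ones, but it leaves out the spread between rats. As a share of counts, the sum was at 0.5237%, above the range of the 7 SHAM rats (0.4137% to 0.4832%) and within that of SD rats (0.3684% to 0.5366%). For the 32 genes with at least 10 counts given by the DMT mean, all 32 lay nearer the count given by the SHAM mean than that given by the DMT mean on the log scale. These 32 were picked by the DMT mean alone, the value that also chose the genes, so this is a description and not a test. For some of them the SHAM mean gives few counts, such as 2.468 for ENSRNOG00000021526. For ENSRNOG00000032202, described next, 1 count was seen where the DMT mean gives 29.95 and the SHAM mean 0.5493. For ENSRNOG00000010633, 103 counts were seen where the DMT mean gives 401.9 and the SHAM mean 79.56. For the rest the depth was limiting, and of all 63 genes 18 were at 0 counts and 31 at 3 counts or more.

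The ratio of the DMT mean to the higher of the SHAM and SD means (0.1 CPM added) chose the genes and is given as a description. It was 4 or more for 14 genes and under 2.5 for 24 genes. On the log2 scale of the fitted model, the median of the 63 genes was 1.72 for DMT vs SHAM and 1.57 for DMT vs SD, beside -0.0040 and 0.0078 over all 14664 genes. The comparisons share the DMT-treated rats.

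ENSRNOG00000034228 had the largest ratio, 69.0. It lies on chromosome 4 from 237973381 to 238354786 on the plus strand, with 37 exon blocks and 4628 exonic bases. In SD rats it ranged from 0.0415 to 0.146 CPM (median 0.0828) and in SHAM rats from 0.0441 to 0.342 CPM (median 0.138). In DMT-treated rats it ranged from 12.0 to 22.4 CPM (median 18.1). Untreated rats held between 1 and 7 counts each and DMT-treated rats between 300 and 564, so a gene at the edge of detection in untreated rats was readily counted in all 6 treated rats. Where the untreated mean is this low, the ratio depends on the 0.1 CPM added. A short gene on the same strand, ENSRNOG00000046713, lies within its span, and fragments shared by both are not counted.

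ENSRNOG00000032202, on chromosome 7 from 11658216 to 11666646, had a ratio of 52.4. It ranged from 0.384 to 6.50 CPM (median 1.75) in SD rats, from 0.832 to 4.90 CPM (median 1.79) in SHAM rats and from 107 to 154 CPM (median 136) in DMT-treated rats. Within each untreated group the highest rat was several times the lowest, whereas the spread in DMT-treated rats was small (134 ± 18.8 CPM, mean ± SD, n=6). The highest untreated value was that of SD rat 354, and the lowest treated rat was at 16.53 times that value.

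ENSRNOG00000012851, on chromosome 2 from 124014201 to 124105971, was at 0 to 0.342 CPM (median 0.271) in SD rats, 0.122 to 0.750 CPM (median 0.361) in SHAM rats and 4.85 to 9.65 CPM (median 6.63) in DMT-treated rats, a ratio of 14.4. Another chosen gene, ENSRNOG00000042038, lies just before it on the same strand, from 123989197 to 123991449. It ranged from 0 to 0.0854 CPM (median 0.0451) in SD rats, from 0 to 0.301 CPM (median 0.0612) in SHAM rats and from 0.856 to 2.29 CPM (median 1.35) in DMT-treated rats. Untreated rats held 0 to 17 counts of the former and 0 to 5 of the latter, and DMT-treated rats held 124 to 232 and 21 to 55, so neither range came near the other.

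ENSRNOG00000047285 and ENSRNOG00000015581 lie end to end on the minus strand of chromosome 4, from 165896152 to 165913306 and from 165697844 to 165895140. Each untreated rat held 0 to 3 counts of ENSRNOG00000047285, and DMT-treated rats held 27 to 81 counts, or 1.06 to 3.30 CPM (median 2.13). ENSRNOG00000015581, a gene of 72 exon blocks, was at 0 to 8 counts in untreated rats. In DMT-treated rats it was at 37 to 84 counts, or 1.45 to 3.38 CPM (median 2.52). In both genes DMT-treated rat 316 was highest and DMT-treated rat 325 lowest, so the 2 neighbours shared the ends of their order. ENSRNOG00000015581 overlaps 2 small genes on its strand, ENSRNOG00000015470 and ENSRNOG00000044036, both at or close to 0 CPM in all groups.

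ENSRNOG00000002937, on chromosome 13 from 55555587 to 55566981, combined a high level with a wide spread. SD rats ranged from 17.7 to 60.4 CPM (median 27.7) and SHAM rats from 20.3 to 71.4 CPM (median 48.3). DMT-treated rats were at 143, 314, 371, 527, 573 and 624 CPM. The lowest of these, rat 341, was 1.999 times the highest untreated rat. Its mean was 425 ± 183 CPM (SD, n=6), a ratio of 8.71.

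ENSRNOG00000010655, on chromosome 2 from 261907825 to 261948693, had its group means in the order SD, SHAM and DMT. It ranged from 1.59 to 3.16 CPM (median 1.91) in SD rats, from 2.80 to 7.70 CPM (median 5.03) in SHAM rats and from 28.6 to 54.7 CPM (median 44.0) in DMT-treated rats. SD and SHAM ranges overlapped only between 2.80 and 3.16 CPM, and the ratio of DMT to the SHAM mean was 8.04.

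**Figure D2:**
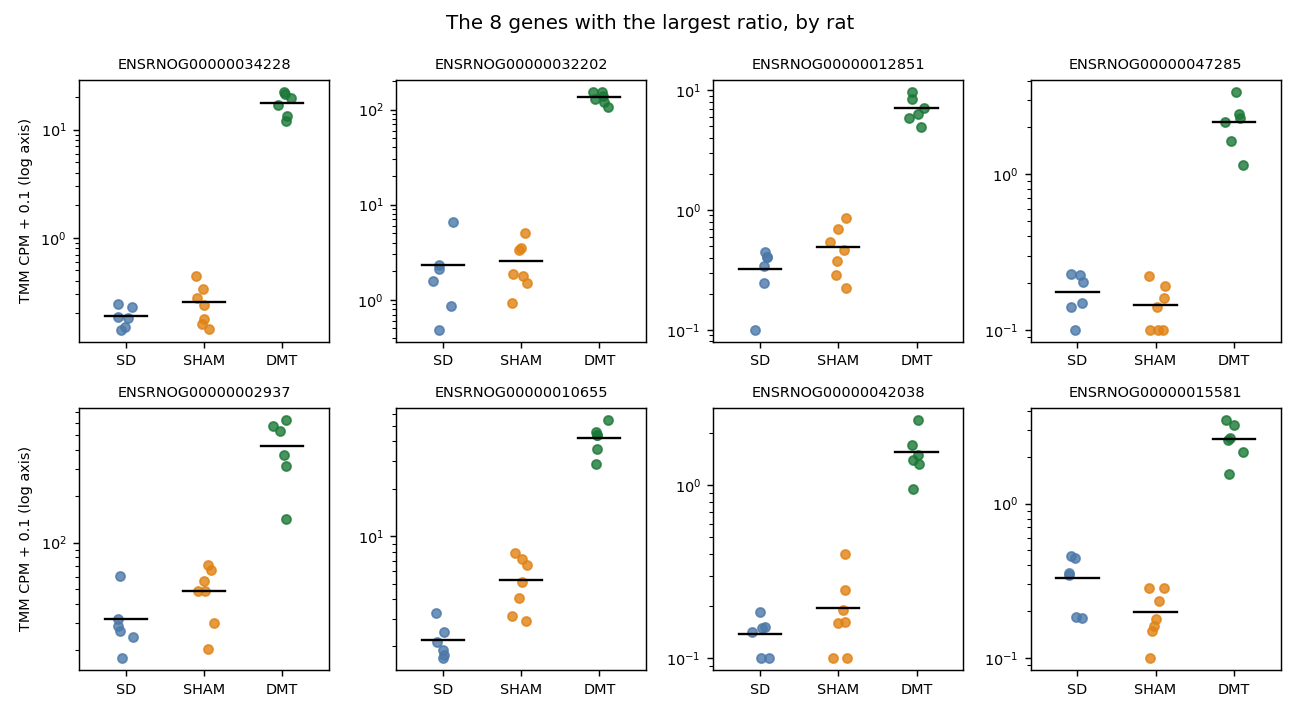
TMM CPM plus 0.1 (log axis) by group for the 8 genes with the largest ratio, with a point per rat and a line at the group mean (n=6 SD, 7 SHAM and 6 DMT-treated rats). All DMT-treated points lie above all others in each panel, as the choice of genes fixes, from 12.0 to 22.4 CPM against at most 0.342 CPM for ENSRNOG00000034228, and the widest treated spread is that of ENSRNOG00000002937.

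The other 12 of the 20 genes with the largest ratios ran from 5.36 for ENSRNOG00000021526 to 3.44 for ENSRNOG00000010580. ENSRNOG00000021526 (chromosome 5, 163890565 to 163894419) ranged from 6.51 to 16.0 CPM (median 11.8) in SD rats, from 6.62 to 16.4 CPM (median 9.71) in SHAM rats and from 56.0 to 72.5 CPM (median 64.1) in DMT-treated rats. It was the most even of the genes with a ratio over 5, with no DMT-treated rat far from the rest. ENSRNOG00000047102 and ENSRNOG00000011578 had DMT means of 1.69 and 2.73 CPM. ENSRNOG00000047726 and ENSRNOG00000047860 had DMT means of 20.5 and 12.3 CPM. ENSRNOG00000026848 and ENSRNOG00000011427 were close to each other, at 44.9 and 44.0 CPM. Higher DMT means in this set were 659 CPM for ENSRNOG00000032908, 741 CPM for ENSRNOG00000008843 and 87.3 CPM for ENSRNOG00000010580, and ENSRNOG00000010633 and ENSRNOG00000046005, also of this set, are described below with the most abundant genes.

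The genes covered a wide range of levels. The DMT mean was under 10 CPM for 20 genes and 100 CPM or more for 23, with a median of 44.9 CPM beside 23.8 CPM over all genes tested. The choice of genes favours a high DMT mean. Without treatment the median was lower than that of all genes tested, at 11.1 CPM beside 23.7 CPM in SHAM rats and 11.9 CPM beside 23.8 CPM in SD rats. Both untreated means were under 0.5 CPM for 8 genes and under 10 CPM for 30, so most of the genes were well above the detection limit without treatment and a few were close to it. Per kilobase of exon, the median DMT level was 23.2 CPM, beside 11.6 CPM over all genes tested. Gene structure was similar to that of all genes tested, with a median exonic length of 1855 against 2006 bases and a median of 8 exon blocks in both. A single exon block was found in 1 gene, ENSRNOG00000027445.

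ENSRNOG00000010633, on chromosome 16 from 48653023 to 48697521, had the highest level by CPM. It ranged from 251 to 383 CPM (median 305) in SD rats, from 278 to 440 CPM (median 334) in SHAM rats and from 1551 to 2253 CPM (median 1784) in DMT-treated rats, a ratio of 5.05. The lowest treated rat was 3.526 times the highest untreated one, the widest gap among the 10 most abundant genes.

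ENSRNOG00000005849, on chromosome 5 from 60972004 to 61027705, was the next by level. SD rats ranged from 539 to 858 CPM (median 633), SHAM rats from 406 to 760 CPM (median 550) and DMT-treated rats from 1391 to 1635 CPM (median 1551). Its ratio of 2.35 is modest, yet its DMT-treated rats were tightly grouped (1539 ± 85.0 CPM, SD, n=6).

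ENSRNOG00000046005, on chromosome 1 from 271502294 to 271515353, ranged from 209 to 479 CPM (median 360) in SD rats, from 219 to 416 CPM (median 279.6) in SHAM rats and from 1036 to 1735 CPM (median 1441) in DMT-treated rats. ENSRNOG00000014090, on chromosome 4 from 165235748 to 165244511, ranged from 206 to 714 CPM (median 450.2) in SD rats, from 415 to 706 CPM (median 528) in SHAM rats and from 1207 to 1473 CPM (median 1388) in DMT-treated rats. ENSRNOG00000013766, on chromosome 18 from 69873084 to 69901836, ranged from 233 to 547 CPM (median 445) in SD rats, from 257 to 453 CPM (median 327) in SHAM rats and from 1083 to 1525 CPM (median 1376) in DMT-treated rats. In these 3 genes the untreated groups overlapped over most of their range. Per kilobase, ENSRNOG00000013766 had the highest DMT level of the 63 genes, with 821 CPM per kb, followed by ENSRNOG00000008843 with 762 and ENSRNOG00000014090 with 735. The other abundant genes, ENSRNOG00000046889, ENSRNOG00000020308 and ENSRNOG00000008236, had DMT means of 609, 524 and 468 CPM.

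**Figure D3:**
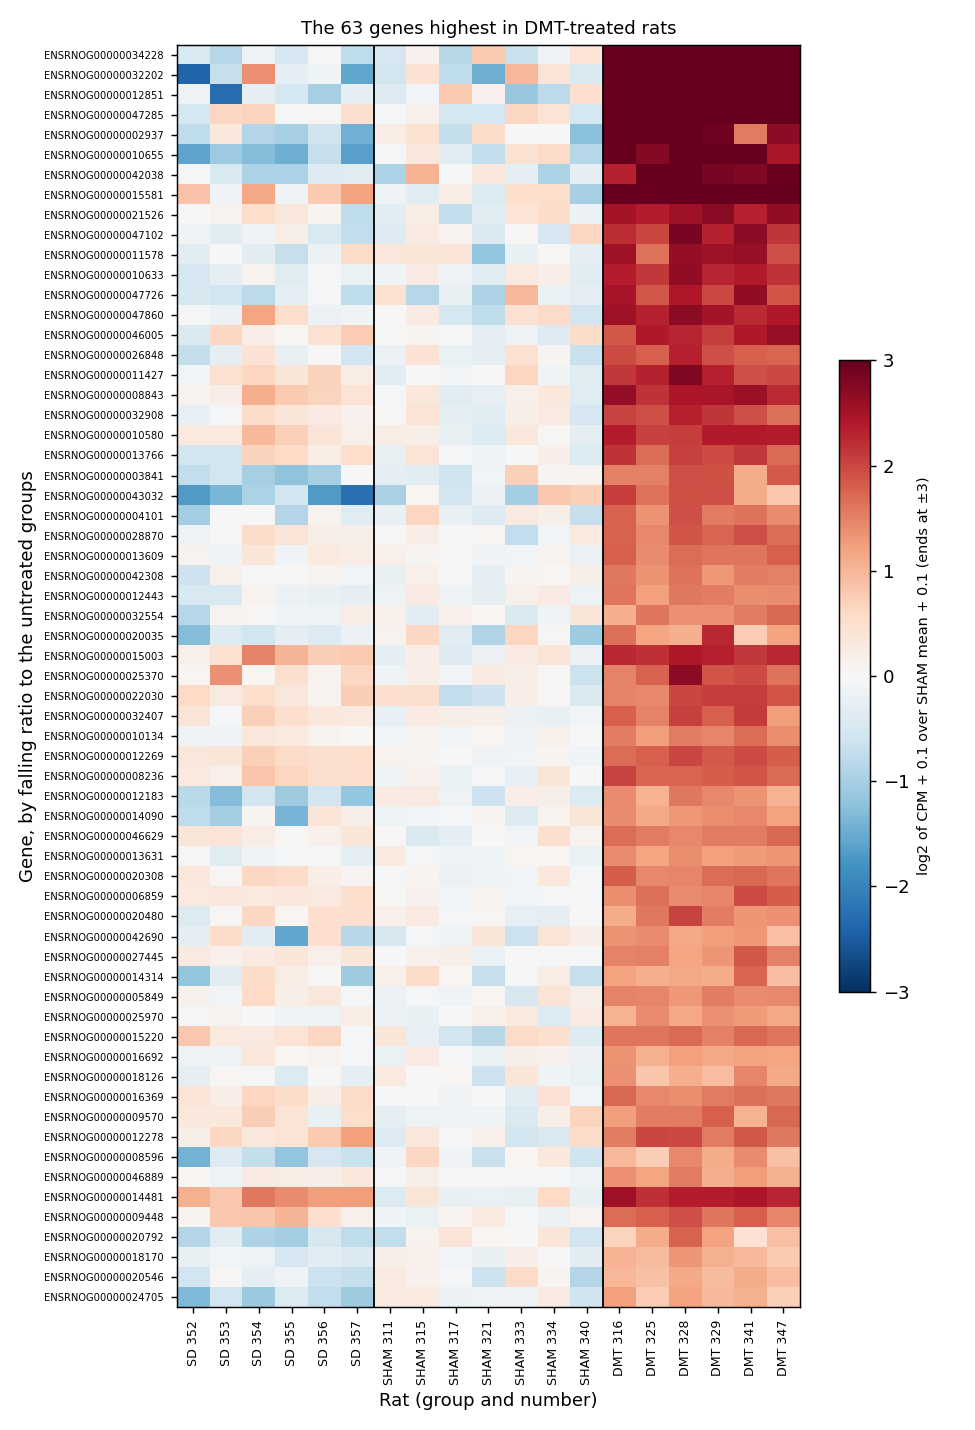
Log2 of CPM plus 0.1 over the SHAM mean plus 0.1 (colour, ends at ±3) for the 63 genes (rows, by falling ratio) in each rat (columns). Untreated rats vary around 0 in both directions, SD rat 354 is red for many genes, and the median over the 63 genes is 1.61 to 1.92 in the 6 DMT-treated rats.

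At the other end, the 3 genes just inside the 2-fold condition were ENSRNOG00000018170 (chromosome 16, 19859540 to 19876618, ratio 2.0472), ENSRNOG00000020546 (chromosome 1, 83511519 to 83530200, ratio 2.0078) and ENSRNOG00000024705 (chromosome 4, 142869496 to 142872500, ratio 2.0039). Their DMT means were 82.6 ± 10.3, 32.5 ± 2.44 and 96.9 ± 14.5 CPM (SD, n=6). Just outside it were ENSRNOG00000003025 (ratio 1.9912), ENSRNOG00000011951 (1.9716) and ENSRNOG00000020345 (1.9594), with DMT means of 3.24, 21.4 and 110 CPM. The spread of DMT-treated rats around their mean is far larger than the distance of these genes to the threshold. The gap between treated and untreated rats was narrowest for ENSRNOG00000043032, ENSRNOG00000020792 and ENSRNOG00000008596, in which the lowest DMT-treated rat was 1.005, 1.025 and 1.072 times the highest untreated rat. In the first of these the lowest treated rat stood at 2.408 CPM and the highest untreated rat at 2.397 CPM. Leaving out each rat in turn gave 63 to 67 genes, and 58 of the 63 stayed each time. The 5 that dropped out at least once were ENSRNOG00000024705 (without any of 9 rats), ENSRNOG00000020546 (any of 4), ENSRNOG00000018170 and ENSRNOG00000020792 (either of 2) and ENSRNOG00000020035 (1).

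The choice of genes set no order between SHAM and SD rats, although it used the values of both. That comparison was tested with the quasi-likelihood test of edgeR, with Benjamini-Hochberg adjustment over all 14664 genes, an adjusted p-value under 0.05 and a fold-change of at least 1.3. Of the 63 genes, 7 were higher in SHAM rats (11.1%), beside 10.3% of all genes tested. A further 9 were lower in SHAM rats (14.3%), beside 7.95% of all genes tested. The remaining 47 did not pass. The share that was higher is near the background, and the median log2 fold-change of the 63 genes was -0.10 against 0.0056 over all genes. When a fold-change above 1.3 was itself the hypothesis tested, 3 of the 63 genes were higher in SHAM rats (4.76%), beside 3.01% of all genes tested, and 2 were lower (3.17%), beside 2.52%. With 2 lower calls, this stricter test is too sparse to show whether the larger share of lower calls holds. Some of the 63 genes passed the low-count filter only through DMT-treated rats and could hardly be called in SHAM vs SD. Examples are ENSRNOG00000042038 and ENSRNOG00000034228, with at most 5 and 7 counts in any untreated rat. With at least 10 counts required in every rat, 5 of the chosen genes were higher in SHAM rats and 9 lower, beside 1330 and 992 of all genes. That filter leaves fewer genes to test in both sets, and their numbers are not given here. These counts are therefore not shares and cannot be compared with the percentages above.

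ENSRNOG00000043032, on chromosome 15 from 31854894 to 31859799, had the largest difference. It ranged from 0.205 to 0.882 CPM (median 0.399) in SD rats, from 0.612 to 2.40 CPM (median 1.17) in SHAM rats and from 2.41 to 5.99 CPM (median 4.81) in DMT-treated rats. Its log2 fold-change for SHAM vs SD was 1.44 (SE 0.385, edgeR adjusted p=0.00768), and the adjusted p-value was 0.0539 when a fold-change above 1.3 was tested. It shares its start with ENSRNOG00000025625 on the same strand, which leaves its counts uncertain.

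ENSRNOG00000010655 was higher in SHAM than in SD rats by a log2 fold-change of 1.29 (SE 0.248, edgeR adjusted p=0.000714). Smaller differences in the same direction were those of ENSRNOG00000012183 and ENSRNOG00000024705. ENSRNOG00000012183, on chromosome 2 from 2604443 to 2614390, ranged from 3.28 to 5.55 CPM (median 4.25) in SD rats, from 5.33 to 9.94 CPM (median 9.36) in SHAM rats and from 16.9 to 24.7 CPM (median 21.6) in DMT-treated rats, with a log2 fold-change for SHAM vs SD of 0.90 (SE 0.163, edgeR adjusted p=0.000441). ENSRNOG00000024705 ranged from 19.3 to 36.1 CPM (median 25.8) in SD rats and from 31.6 to 58.9 CPM (median 44.6) in SHAM rats, a log2 fold-change of 0.84 (SE 0.158, edgeR adjusted p=0.000602). In these genes the SD mean was below the SHAM mean, and the choice of genes fixes the DMT mean as the highest.

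The largest decrease was that of ENSRNOG00000014481, on chromosome 17 from 24598244 to 24662657. SD rats ranged from 52.3 to 89.0 CPM (median 71.2), SHAM rats from 22.1 to 45.0 CPM (median 25.5) and DMT-treated rats from 135 to 174 CPM (median 151). The ranges of SD and SHAM rats did not overlap, and the log2 fold-change for SHAM vs SD was -1.26 (SE 0.148, edgeR adjusted p=6.91e-06). ENSRNOG00000015003, on chromosome 1 from 142435410 to 142442491, ranged from 46.5 to 116 CPM (median 70.4) in SD rats, from 31.8 to 54.7 CPM (median 37.1) in SHAM rats and from 182 to 222 CPM (median 201) in DMT-treated rats. Its log2 fold-change for SHAM vs SD was -0.84 (SE 0.166, edgeR adjusted p=0.000937), with some overlap between the untreated groups. In both genes the SHAM mean was the lowest, whereas the place of DMT-treated rats above SD rats is fixed by the choice of genes.

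**Figure D4:**
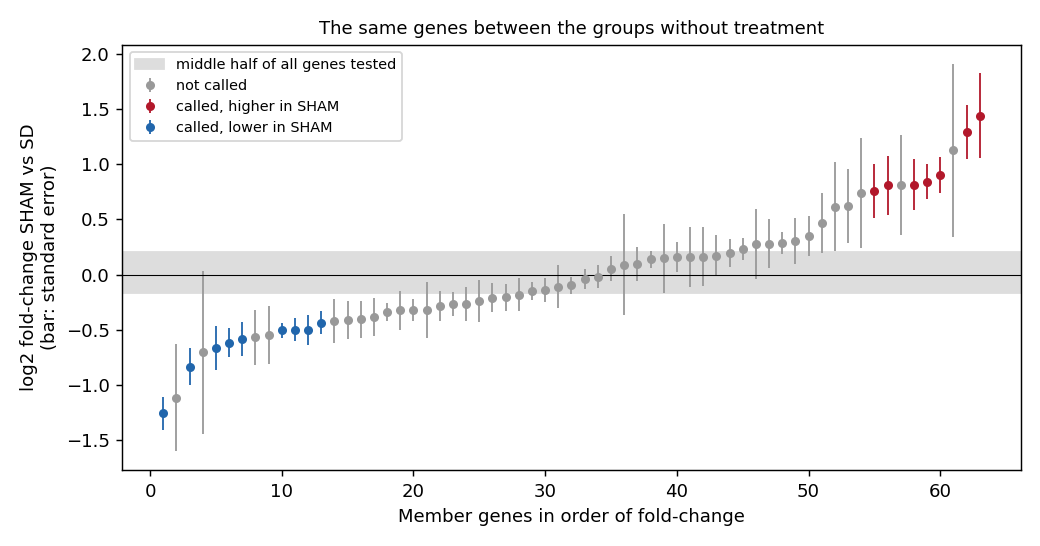
Log2 fold-change of SHAM vs SD (y axis, bars are standard errors) for the 63 genes in order of that value (x axis), with the range between the lower and upper quartile of all genes tested in grey (-0.17 to 0.20). Values run from -1.26 to 1.44 with 7 genes passing the test above 0 and 9 below it.

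The spread between rats of a group is described by the coefficient of variation, with no test. Its median value was 22.9% in SD rats, 22.7% in SHAM rats and 15.02% in DMT-treated rats, beside 10.6%, 11.9% and 7.95% over the 13385 genes with a DMT mean of at least 1 CPM. That filter keeps genes with few counts in untreated rats, where counting error is a larger part of the spread, such as ENSRNOG00000042038 with 111% in SHAM rats. Among genes that average 10 CPM or more in the group itself, a filter added after seeing the data, the medians were 18.2% for 33 of the 63 genes in SD rats, 19.02% for 32 in SHAM rats and 12.4% for 43 in DMT-treated rats, beside 8.93%, 9.95% and 6.60% over all genes passing it. Values of different genes also moved together within groups. The mean correlation of log2 CPM between pairs of the 63 genes was 0.140 across 6 SD rats, 0.135 across 7 SHAM rats and 0.191 across 6 DMT-treated rats, beside 0.00189, 0.00142 and 0.000219 between pairs of the 13385 genes. These pairs share libraries and their normalization, so the values describe these rats and are not tests.

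Some rats stood at the ends of their group for many of the genes. SD rat 354 was the highest SD rat for 27 of the 63 genes (42.9%), beside 9.72% of all genes of at least 1 CPM, and the highest of all 13 untreated rats for 21 genes (33.3%, beside 5.27%). SD rat 352 was the lowest SD rat for 23 genes (36.5%, beside 12.3%). Among DMT-treated rats, rat 328 was highest for 24 genes (38.1%, beside 22.7%) and rat 325 lowest for 26 (41.3%, beside 14.5%). The median log2 level over the SHAM mean was 0.24 in SD rat 354, and in DMT-treated rats it ran from 1.61 in rat 325 to 1.92 in rat 328. Rat 328 had 23373166 counts and rat 325 had 25497351, both within the range of their group, and the part of depth was not tested.

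The 63 genes lie on 17 chromosomes. Chromosome 5 held 11 of them (17.5%, beside 6.73% of all genes tested), chromosome 1 held 10 (15.9%, beside 12.7%) and chromosome 4 held 8 (12.7%, beside 5.79%). Of the 63 genes, 13 had another of them within 500 kb (20.6%), and 5.4% of all genes tested had one within that distance. These 13 form 5 neighbourhoods. A distance of 100 kb, also chosen after the positions were seen, gives 8 such genes and 1000 kb gives 16.

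On chromosome 6, 3 genes of the minus strand lie between 118051433 and 118293920. ENSRNOG00000028870 ranged from 34.9 to 56.0 CPM (median 43.5) in SD rats, from 23.2 to 47.4 CPM (median 39.8) in SHAM rats and from 105 to 147 CPM (median 131) in DMT-treated rats. ENSRNOG00000010134 ranged from 75.6 to 103 CPM (median 85.2) in SD rats, from 74.7 to 90.9 CPM (median 81.0) in SHAM rats and from 194 to 259 CPM (median 231) in DMT-treated rats. The third, ENSRNOG00000009448, was lower in SHAM than in SD rats (log2 fold-change -0.62, SE 0.133, edgeR adjusted p=0.00172). Its mean in DMT-treated rats, the highest by the choice of genes, was 90.3 ± 10.2 CPM (SD, n=6). At lower positions on the same strand lie 3 further genes that were not chosen but were higher in DMT-treated than in SHAM rats. ENSRNOG00000046864 rose by a log2 fold-change of 1.23 (SE 0.123, edgeR adjusted p=6.48e-07) and ENSRNOG00000033887 by 0.91 (SE 0.0769, edgeR adjusted p=6.64e-08), with DMT means 1.46 and 1.875 times the higher untreated mean. ENSRNOG00000032508 rose by 0.99 (SE 0.266, edgeR adjusted p=0.0129) but stayed far below SD rats, with means of 19.1 CPM in SD, 1.896 CPM in SHAM and 3.79 CPM in DMT-treated rats. The 3 other tested genes between the chosen ones did not pass. Their log2 fold-changes for DMT vs SHAM were 0.13 for ENSRNOG00000038183 and -0.0014 for ENSRNOG00000009653, both on the plus strand, and 0.21 for ENSRNOG00000010126 on the minus strand.

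Values in the other neighbourhoods are given side by side. On chromosome 5, ENSRNOG00000016692, ENSRNOG00000046629 and ENSRNOG00000013609 lie between 80949471 and 81558840, and the 3 other tested genes among them had log2 fold-changes for DMT vs SHAM of -0.17, -0.034 and 0.010. On chromosome 4, ENSRNOG00000014090, ENSRNOG00000015581 and ENSRNOG00000047285 lie between 165235748 and 165913306. Of the 5 other tested genes there, 1 passed with a lower level in the DMT group (ENSRNOG00000048931, log2 fold-change -0.92, SE 0.261, edgeR adjusted p=0.018). Past the end of that stretch, ENSRNOG00000005587 was higher in the DMT group (log2 fold-change 0.56, SE 0.0805, edgeR adjusted p=6.73e-05), with means of 308 CPM in SD, 301 CPM in SHAM and 443 CPM in DMT-treated rats. On chromosome 1, ENSRNOG00000046005 and ENSRNOG00000032554 lie between 271502294 and 271548263, and on chromosome 2 ENSRNOG00000042038 and ENSRNOG00000012851 lie between 123989197 and 124105971, both pairs on the plus strand with 0 other tested genes between their ends.

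**Figure D5:**
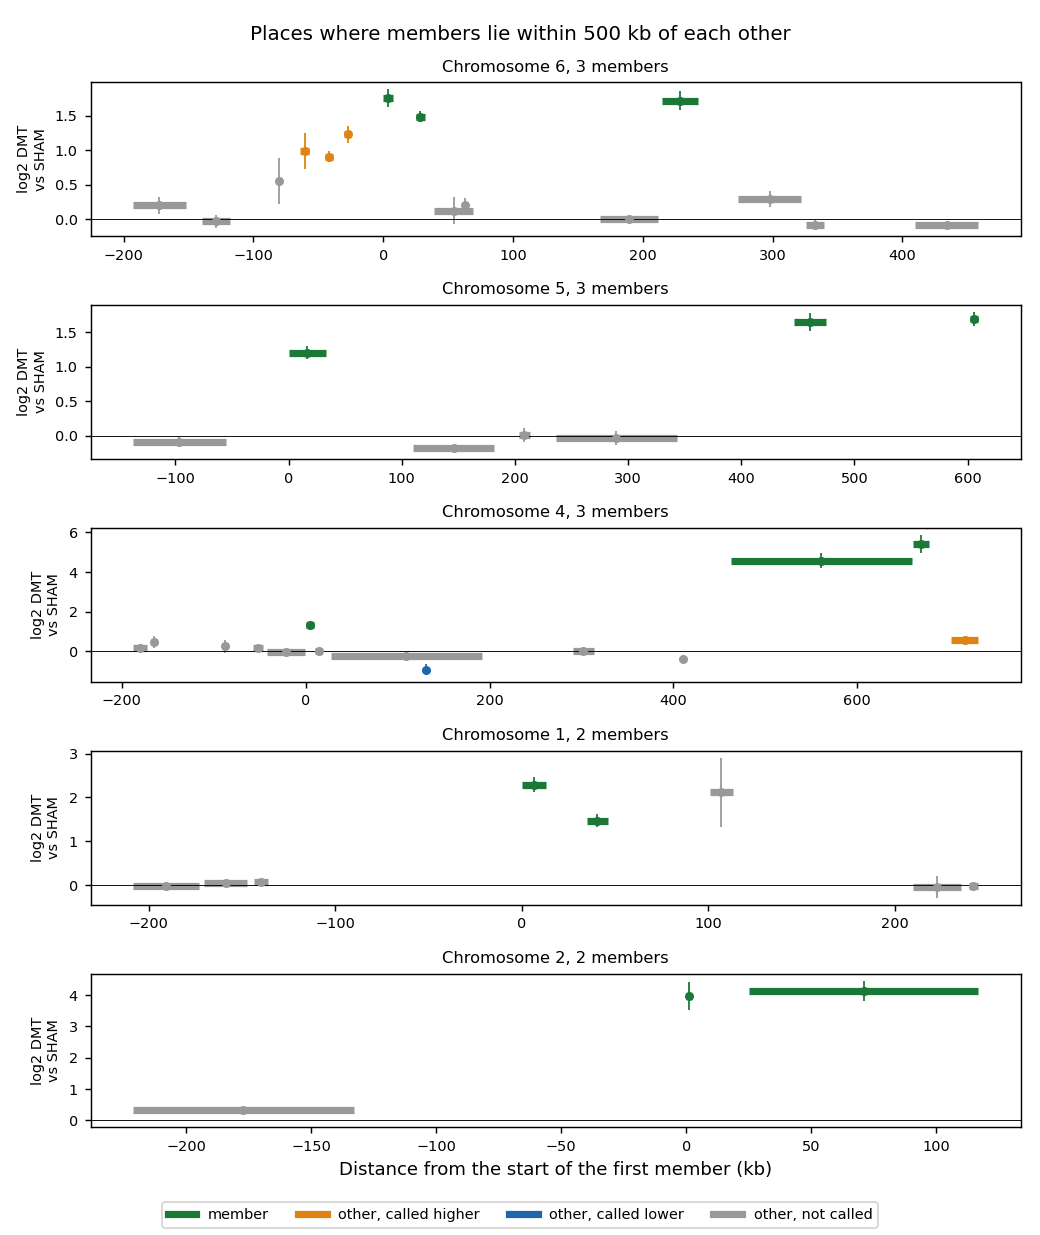
Log2 fold-change of DMT vs SHAM (y axis, standard error bars) against distance in kb from the start of the neighbourhood's first chosen gene (x axis), with a horizontal bar for each tested gene's span. Green genes are the chosen ones, and orange and blue genes are others that passed the test, among them 3 genes on chromosome 6 with values of 0.91, 0.99 and 1.23.

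The nearest tested gene on each side that was not itself chosen was compared between DMT-treated and SHAM rats by the same test. There were 113 such genes. Of them, 17 were higher in DMT-treated rats (15%), beside 4.12% of all genes tested, and 7 were lower (6.19%), beside 7.36%. Their median log2 fold-change was 0.05, over genes that went in both directions. Within 50 kb of a chosen gene 15 of 71 neighbours were higher (21.1%) and 4 lower (5.63%), and beyond it 2 of 42 were higher (4.76%) and 3 lower (7.14%). On the same strand 10 of 52 were higher (19.2%) and 5 lower (9.62%), and on the opposite strand 7 of 61 were higher (11.5%) and 2 lower (3.28%). The splits by distance and by strand were not part of the plan, and the differences between their parts were not tested. With a fold-change above 1.3 as the hypothesis tested, 10 of the 113 were higher (8.85%), beside 1.44% of all genes tested, and 1 was lower (0.885%), beside 1.7%.

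Among these neighbours, ENSRNOG00000022054 lies 2861 bases from ENSRNOG00000022030 on the same strand. It had means of 141 CPM in SD, 79.8 CPM in SHAM and 220.2 CPM in DMT-treated rats, with a log2 fold-change for DMT vs SHAM of 1.46 (SE 0.154, edgeR adjusted p=1.31e-06). ENSRNOG00000014718, 16941 bases from ENSRNOG00000025970 on the same strand, had means of 145 CPM in SD, 112 CPM in SHAM and 243 CPM in DMT-treated rats, a log2 fold-change of 1.12 (SE 0.0750, edgeR adjusted p=3.05e-09). Both were highest in DMT-treated rats but under 2-fold above SD rats, and so fell outside the choice. These neighbours were named after their values were seen.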

How the data were processed

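The deposited values are raw, unnormalized counts per gene for 26404 Ensembl genes of rn5, in a table for every rat. Per the file headers and the study's methods, read pairs were mapped with STAR and assigned to exons by featureCounts (1.6.4), counting the reverse strand. By its defaults, multi-mapping and ambiguous fragments do not count, so genes overlapping on the same strand (3 of the 63) lose shared fragments. The header and gene table were the same in all 21 libraries.

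The following was computed from these counts. Filtering (filterByExpr, minimum count 10, minimum total count 15), TMM normalization and quasi-likelihood tests used edgeR (4.0.16, limma 3.58.1, R 4.3.3) in one fit of 19 libraries (6 SD, 7 SHAM and 6 DMT), without the 2 SHAM libraries under 1000000 counts. The common biological coefficient of variation was 0.158. Thresholds for calls were those of the study, a 1.3-fold difference or more in either direction with an adjusted p-value under 0.05. Standard errors were derived from the F statistic. The labels give each library its own rat number. Rats 343 and 348, whose counts agreed within sampling noise, were summed as 1 sample and entered as 2 libraries only in the alternative with all 21. No p-value is given for the 63 genes in DMT vs SHAM or DMT vs SD, which chose them. The members and lists were chosen with earlier results of these data known. The pipeline was tested on simulated data. Figures were made with Python 3.11.15, pandas 2.3.3 and matplotlib 3.10.9.

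Genes named are the 20 with the largest ratio, the 10 with the highest DMT mean, the 3 on each side of the 2-fold condition and the 6 with the largest SHAM vs SD difference among those called. Genes named as neighbours, and genes given for a single property such as exon number, were chosen after their values were seen. Alternatives were DESeq2 (1.42.0), other scalings, filters and thresholds, all 21 libraries, only the groups compared, and leaving out each rat in turn. Gene lists, cell type markers and promoter motifs were not analysed here because identifiers could not be paired with symbols.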

Additional observations from a re-analysis of the deposited data

Results flagged for a closer look

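In the named genes, the library totals and the share of counts on the 63 genes, 114 groups of 6 or 7 rats were checked for a rat lying apart from the others by Dixon's criterion. It marked 5 groups, where chance gives about 5.7. ENSRNOG00000032202 was 6.49709 CPM in SD rat 354 and 0.384 to 2.24 CPM in the other SD rats. ENSRNOG00000002937 was 60.4308 CPM in SD rat 353 and 17.7 to 32.0 CPM in the others. ENSRNOG00000046005 was 415.504 CPM in SHAM rat 340, with the other SHAM rats at 219 to 298 CPM. ENSRNOG00000011427 was 14.087 CPM in SHAM rat 333, with the others at 6.97 to 9.05 CPM. ENSRNOG00000026848 was 58.9189 CPM in DMT-treated rat 328, with the others at 39.5 to 45.2 CPM. In all 5 the rat apart was the highest, and the 5 rats were different ones.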

How the results depend on the processing

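The number of genes chosen was 63, 120 with a 1.5-fold and 24 with a 3-fold condition, and within 1.5 times of 63 under the other alternatives, with 63 to 67 when each rat was left out. For SHAM vs SD, 16 of the 63 genes passed, 15 to 20 without each rat (15 without SD rat 354 and without SD rat 355) and 5 with a fold-change above 1.3 tested in the model (glmTreat). Over all genes 2681 passed in SHAM vs SD, 5131 with no fold-change threshold, 810 with glmTreat and 2198 to 3070 without each rat. In DMT vs SHAM 1684 passed, 2976 with no fold-change threshold, 461 with glmTreat and 1398 to 1958 without each rat. Among genes next to the chosen ones, 24 passed, 11 with glmTreat and 21 to 27 without each rat. Fewer calls under glmTreat and more without a fold-change threshold follow from the construction of these tests. DESeq2 gave 17, 2780, 1820 and 25 for these 4 counts, and all 21 libraries 16, 2673, 1691 and 25. The 6 genes named for SHAM vs SD kept their direction, and only ENSRNOG00000043032 missed the threshold, under glmTreat (adjusted p=0.0539). DESeq2 size factors moved the median of all genes by less than 0.1 on the log2 scale.

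Genes under about 0.2 CPM are limited by depth, and ratios there depend on the 0.1 CPM added. Alternatives for gene lists, DMT vs SD over all genes and promoter motifs were not run. With at least 10 counts required in every rat ENSRNOG00000043032 was not tested. No paired analysis was possible because the labels give the groups no shared replicate numbers.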

Other observations

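ENSRNOG00000013552, on chromosome 1 from 271602887 to 271615702 (rn5, minus strand), lies beyond the chosen genes ENSRNOG00000046005 and ENSRNOG00000032554 and was named after its values were seen. Its means were 1.45 CPM in SD, 5.70 CPM in SHAM and 24.3 CPM in DMT-treated rats, a ratio of 4.2, but its rats overlapped between groups and so it was not chosen. The difference between DMT and SHAM, 2.12 on the log2 scale (SE 0.784), did not pass the test (edgeR adjusted p=0.062).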
